A study of Mus musculus with 6 samples.

Results

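miR-221 and miR-222 are microRNAs made from 1 primary transcript on the mouse X chromosome. Their members were taken as every PCR well whose assay name, without its species prefix, reads miR-221 or miR-222, minor strands excluded. This found 2 of the 750 miRNA wells, mmu-miR-221 and mmu-miR-222, in adjacent wells F18 and F19 of the first of 2 assay cards. Assays for the minor strands of the same hairpins numbered 0.

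The study compared right lungs of 7-day-old mice. The hyperoxia group (3 samples) had been kept from the first hours of life in 95% oxygen for 168 h, and the room air group (3 samples) had breathed room air. In both groups the pulmonary artery was flushed with buffer before the lung was frozen, and the nursing dams were moved daily between the atmospheres. The sources used here give neither strain, sex nor pooling, nor whether the samples of a group came from separate litters, so p-values measure only how far these samples scatter, and part of that scatter may be technical.

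As background, miRNAs repress messenger RNAs that match their seed, the short stretch near the 5′ end. The targets of miR-221 and miR-222 include the cell cycle inhibitor Cdkn1b (p27) and the receptor Kit. In vascular smooth muscle both favour growth, and in human endothelial cells they restrain tube formation through Kit, so they are of interest in a lung whose vessels are still forming. Their transcript is known to respond to NF-kB and AP-1 in human tumour cell lines.

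Both members carry the same seed but differ in the rest of the molecule. The mature sequences are shown because the shared seed is what makes them 1 family, and the differing 3′ ends are what the stem-loop primers of such assays read. They are RefSeq sequences on GRCm38.p6, minus strand, 5′ to 3′, with the seed (bases 2 to 8) in capitals; the third is the other mouse miRNA with this seed.
mmu-miR-221-3p: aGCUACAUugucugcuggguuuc
mmu-miR-222-3p: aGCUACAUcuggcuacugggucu
mmu-miR-1928: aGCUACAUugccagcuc
The first 8 bases of miR-221-3p and miR-222-3p are identical. Counted position by position from the 5′ end, 11 of 23 bases are the same, and from base 9 on only 3 of 15. Of the last 6 bases, 3 match.

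The hairpins lie 504 bases apart on chromosome X, Mir222 at chrX:19146893-19146971 and Mir221 at chrX:19146294-19146388. On the minus strand Mir222 comes first. They are printed in that order with the mature 3p strand in capitals, to show where in each precursor the measured strand sits.
Mir222: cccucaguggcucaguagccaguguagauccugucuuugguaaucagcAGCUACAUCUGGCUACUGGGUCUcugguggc
Mir221: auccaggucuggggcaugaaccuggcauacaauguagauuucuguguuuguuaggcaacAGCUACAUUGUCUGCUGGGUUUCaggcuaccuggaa
In both precursors the measured strand is the 3′ arm.

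The values are threshold cycles (Ct), the PCR cycle at which a well's signal crosses a threshold, so that abundant RNAs have a low Ct, and at full efficiency 1 cycle is worth a factor of 2. On the first card 307 to 319 miRNAs per sample were detected, that is, had a Ct under 35. No first-card value of these samples is in doubt through duplication: room air replicate 1 and hyperoxia replicate 2 shared 0 identical values there, against 308 of the 309 wells that amplified in both on the second card, whose values were left out of both samples. Lung endothelial miR-126-3p (Ct 12.7 to 13.6 in hyperoxia and 11.3 to 12.7 in room air) and epithelial miR-200c (17.3 to 17.6 in hyperoxia and 16.2 to 17.1 in room air) were read strongly in all 6 samples. Markers of other tissues were read too. Striated muscle miR-133a was detected in all 6 samples (Ct 19.6 to 21.2 in hyperoxia and 18.1 to 19.3 in room air). So was liver miR-122 (25.3 to 30.4 in hyperoxia and 25.0 to 26.9 in room air). Neural miR-9 was detected in all 6 (25.8 to 26.6 in hyperoxia and 25.5 in room air), and neural miR-124 in 4, never below a Ct of 28.5. The number of samples limits the precision.

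In every sample both members were among the earlier wells of the card. miR-222 had a Ct of 17.852, 16.805 and 17.609 in hyperoxia replicates 1 to 3, against 16.718, 17.261 and 18.177 in room air. The groups overlapped fully, with the earliest and the latest value both in room air. By order of Ct, miR-222 stood at position 24 to 34 of the detected miRNAs in hyperoxia and 31 to 49 in room air.

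miR-221 had a Ct of 19.255, 18.423 and 19.632 in hyperoxia, against 19.537, 19.963 and 19.435 in room air. The earliest 2 values were hyperoxia samples, but hyperoxia replicate 3 lay within the room air values. Its position was 57 to 65 in hyperoxia and 82 to 105 in room air, so its place on the card was earlier in all 3 hyperoxia samples. The efficiency of different assays was not calibrated, so the order between miRNAs is one of Ct and not of molecules.

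In Ct as deposited, neither member differed between the groups beyond the spread. miR-221 averaged 19.1 ± 0.619 cycles in hyperoxia and 19.6 ± 0.280 in room air (SD, n = 3 each), a difference of -0.54 cycles with an exact two-sided permutation p of 0.3. miR-222 averaged 17.4 ± 0.548 in hyperoxia and 17.4 ± 0.737 in room air (SD, n = 3 each), a difference of 0.04 cycles with an exact permutation p of 0.9. With 3 samples against 3 the smallest such p is 0.1.

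**Figure D1:**
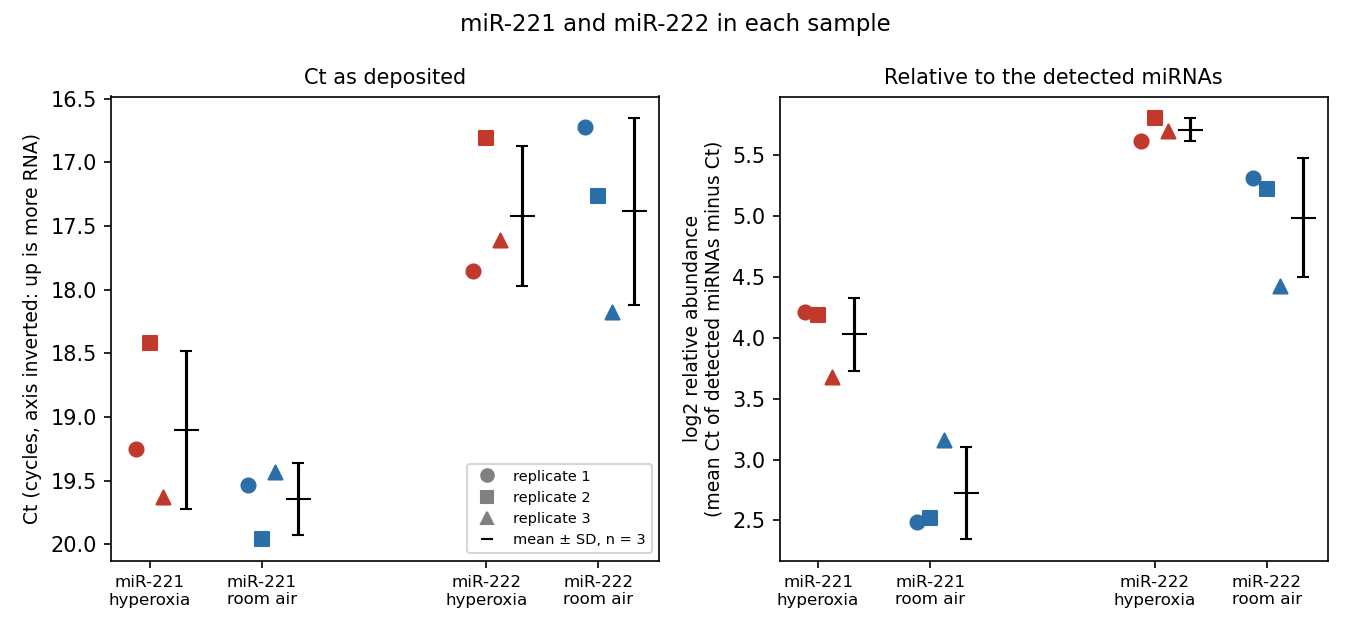
Ct as deposited (left, axis inverted) and log2 relative abundance (right) of miR-221 and miR-222 in each hyperoxia and room air sample, with group means ± SD (n = 3). In Ct the groups overlap for both miRNAs; relative to the detected miRNAs all hyperoxia samples lie above all room air samples.

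The groups separated once each sample was set against the miRNAs of its own card, which were themselves read later in hyperoxia. The mean Ct of the 282 first-card miRNAs detected in all samples was 23.5, 22.6 and 23.3 in hyperoxia and 22.0, 22.5 and 22.6 in room air, 0.76 cycles later in hyperoxia (exact permutation p = 0.1, the smallest possible). Subtracting the Ct of a miRNA from this mean gives its log2 relative abundance, the scale of all changes below unless a scale is named. In bulk lung, fewer cells of a type and less RNA per cell cannot be told apart on any of these scales.

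On this scale miR-221 was at 4.21, 4.19 and 3.68 in hyperoxia and at 2.49, 2.52 and 3.16 in room air. All hyperoxia samples were above all room air samples, and the nearest were the replicates numbered 3. The log2 fold change of hyperoxia over room air was 1.30 ± 0.31 (SE), or 2.47-fold with a 95% interval of 1.44 to 4.23. In limma's test over all 551 assays its unadjusted p was 0.00688 and its adjusted p 0.333, so miR-221 did not pass the threshold of 0.05.

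miR-222 was at 5.62, 5.81 and 5.70 in hyperoxia and at 5.31, 5.22 and 4.42 in room air. Again no sample of one group reached into the other, but the margin between the nearest samples was narrow and room air replicate 3 stood well below the rest. The log2 fold change was 0.72 ± 0.32 (SE), or 1.65-fold with an interval of 0.955 to 2.86, which includes no change. limma's unadjusted p was 0.0660 and its adjusted p 0.610, so miR-222 did not pass either.

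Over all assays 0% were called at the adjusted threshold (0 of 551 by limma, with 50, or 9.07%, at an unadjusted p under 0.05). Unadjusted, 1 of 2 members was under 0.05 on the higher side, where 3.63% of all assays were. Both members had groups that did not overlap and were higher in hyperoxia, which held for 6.29% of the 302 first-card assays. A further 16.2% of those assays had groups that did not overlap and were lower. Ordered by log2 fold change, miR-221 was number 26 and miR-222 number 43 of those 302, and these positions stayed at 26 to 27 and 43 to 47 under every reference tried, since a reference moves all assays of a sample together (quantile normalization alone does more than that).

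The size of the change, unlike its rank, was set by the reference. Relative to single control RNAs, the log2 change of miR-221 was 1.60 with U6 in plate row B, 0.97 with U6 in row A and 0.95 with Y1, against 0.58 with snoRNA202, 0.46 with snoRNA135 and 0.41 with U87. It was above 0 with all 7 references, the miRNA mean included, and the groups did not overlap with 4 of them. Some margins were minute. With snoRNA135 the nearest samples were at -0.265 in hyperoxia and -0.274 in room air, and with Y1, where the groups overlapped, at 0.964 and 0.969. The share of all assays without overlap was not computed for the single control RNAs, for either member's count. U6 is a spliceosomal RNA, and its wells in rows A and B of the same card disagreed on the size of its own difference.

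For miR-222 the same references gave 1.02 with U6 in row B, 0.40 with U6 in row A and 0.37 with Y1, but 0.0013 with snoRNA202, -0.11 with snoRNA135 and -0.17 with U87. The direction of miR-222 therefore turned with the reference, and its groups did not overlap with only 2 of the 7. Of the 16 exact permutation tests made over references and without one, none was below 0.267 after Benjamini-Hochberg adjustment. No unadjusted p of such a test can be under 0.1, so none could have passed, and all 16 reuse the same samples. The authors' deposited table, which rests on U6 in row A and has no test, gives a fold of 1.97 for miR-221 and 1.32 for miR-222. The median of all tested miRNAs was -0.12 relative to the miRNA mean and -0.62 relative to the 5 control RNAs together; against the latter miR-221 was at 0.74 and miR-222 at 0.16.

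**Figure D2:**
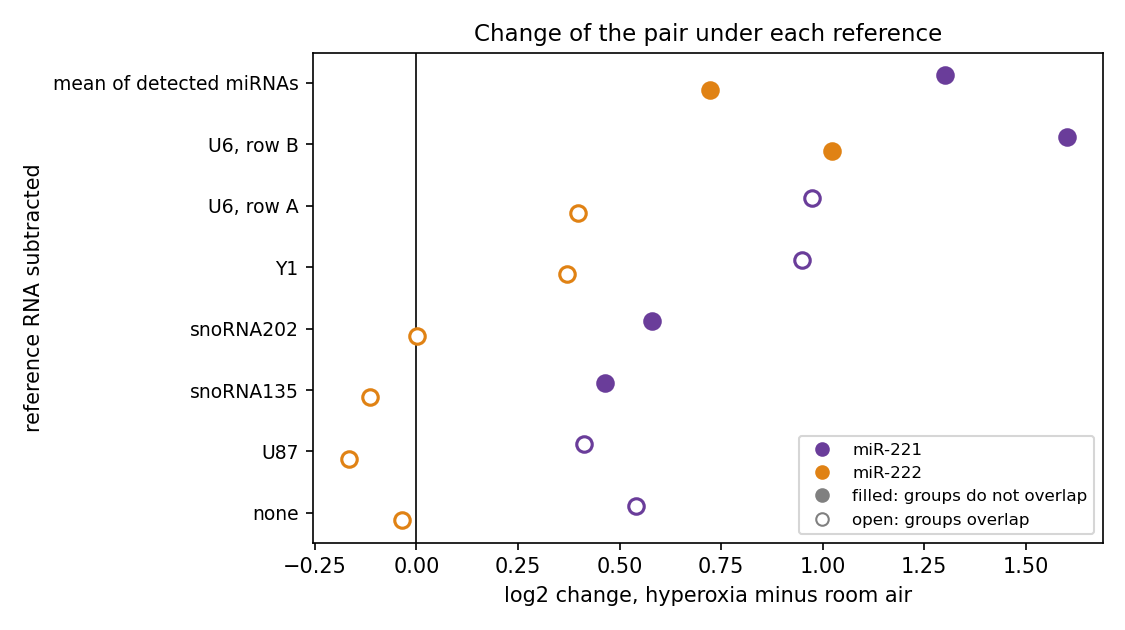
Log2 change of miR-221 and miR-222, hyperoxia minus room air (horizontal axis), under each reference RNA or none (vertical axis); filled points mark groups that do not overlap. miR-221 lies between 0.41 and 1.60 throughout, while miR-222 lies between -0.17 and 1.02 and crosses 0.

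Because both come from 1 transcript and 1 card, they can be set against each other within a sample with no reference at all. The Ct of miR-222 minus that of miR-221 was -1.403, -1.618 and -2.023 in hyperoxia, against -2.819, -2.702 and -1.258 in room air. miR-222 was read earlier than miR-221 in all 6 samples. The gap was narrower in every hyperoxia sample than in room air replicates 1 and 2, but room air replicate 3 had the narrowest gap of all, so the groups overlapped.

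The gap averaged -1.68 ± 0.315 cycles in hyperoxia and -2.26 ± 0.869 in room air (SD, n = 3 each), which makes miR-221 gain 0.58 ± 0.53 (SE) on miR-222 on the log2 scale, with an exact permutation p of 0.4. A difference between the members in their response was therefore not detectable with these samples. The value rests in large part on room air replicate 3, which had the highest relative miR-221 and the lowest relative miR-222 of its group. Without it the gain was 1.08 (exact permutation p = 0.1, the smallest possible), and without room air replicate 1 or 2 it was 0.30 or 0.36. Without replicate 3, miR-221 itself was at 1.51 and miR-222 at 0.43, and neither passed.

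Other miRNAs from shared transcripts give a scale for this gap. Of 22 such pairs listed, 21 were detected in all 6 samples on the first card, some with a further copy elsewhere in the genome and 2 being the arms of a single hairpin. The standard deviation of the gap within groups was 0.654 cycles for miR-221 and miR-222, against a median of 0.391 and a range of 0.171 to 2.27 over the 21 pairs, and 5 pairs varied more. The steadiest pair was miR-143 and miR-145, the miRNAs of smooth muscle, at 0.171 cycles. The change of the gap with hyperoxia was larger in 4 of the 21, miR-322 over miR-503 foremost (8.47), and 0 pairs passed an exact permutation test adjusted over the 21 (the smallest adjusted p was 0.583, and no unadjusted p can be under 0.1). That value rests on the first-card miR-322 well P24, whose log2 fold change was 6.87 ± 1.61 (SE, n = 3 each); the second-card miR-322 well B48 was at -0.41 ± 0.38 (SE, n = 2 each), so the wells differ in direction. Both partners were above 0 in 4 of the 21 pairs, miR-221 and miR-222 included, and both below 0 in 9.

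**Figure D3:**
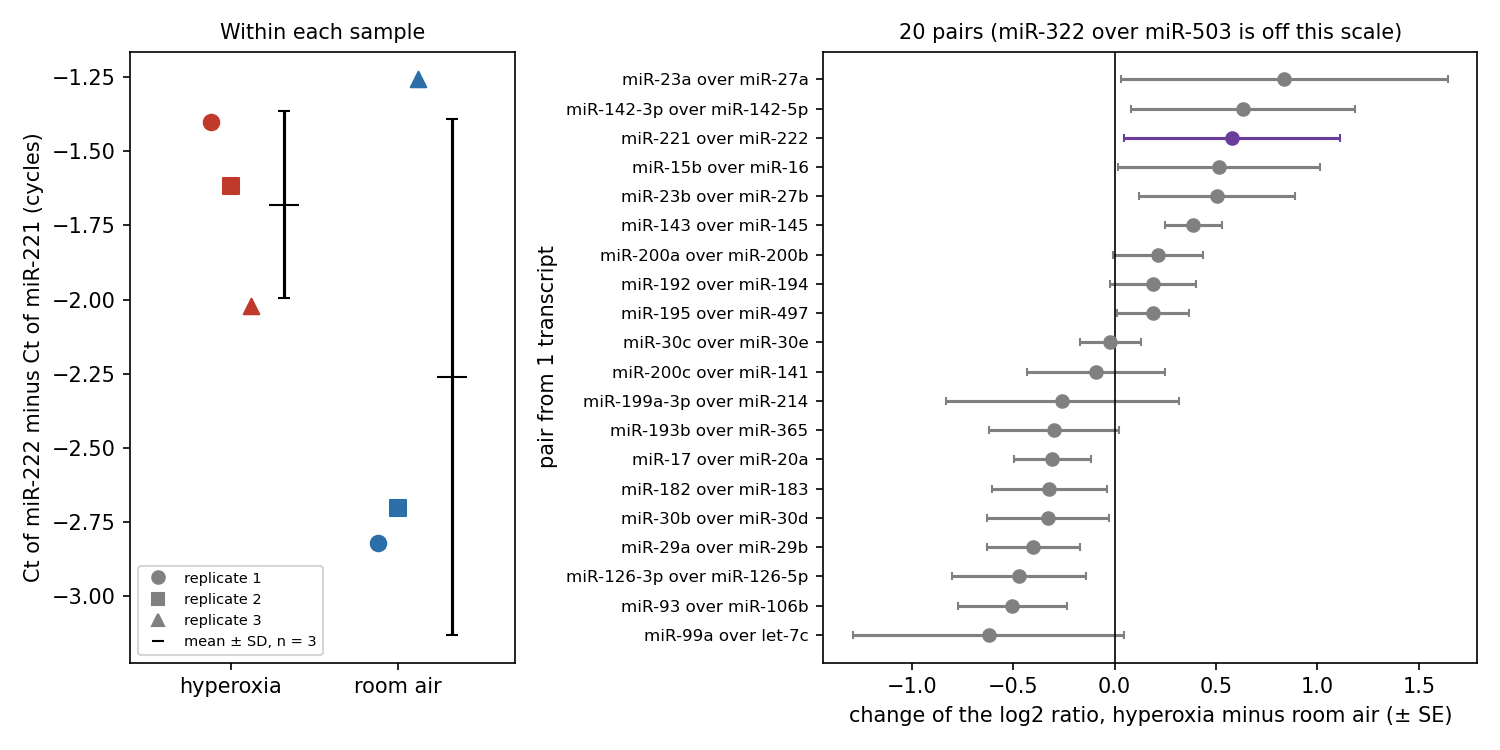
Left, Ct of miR-222 minus Ct of miR-221 in each hyperoxia and room air sample, with mean ± SD (n = 3); right, the change of the log2 ratio within 20 pairs from shared transcripts, hyperoxia minus room air ± SE. Room air replicate 3 lies above the hyperoxia samples, and the pair's change of 0.58 is within the range of the other plotted pairs, -0.62 to 0.84; miR-322 over miR-503, at 8.47, is left off the plot.

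The other mouse miRNA with the seed, miR-1928, was read near the detection limit on the second card. Its Ct was 33.957 and 32.044 in hyperoxia replicates 1 and 3, against 30.418 and 31.935 in room air replicates 2 and 3. The hyperoxia wells were both later, by little for the nearest samples. Its log2 fold change was -1.64 ± 1.0 (SE, n = 2 each) with a limma adjusted p of 0.689, so it did not pass; the number listed beside this assay differs from the one in its name, which leaves its identity uncertain. Over the 1679 mature mouse miRNAs of the RefSeq table, 3 have this seed, and the well was the only other assay of the series that matched one.

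The assays whose relative abundance ran most like that of each member over the 6 samples differed between the members. Likeness was Pearson's r over 280 other first-card assays, given as a description: all values share the card's reference, and any assay with a difference between groups scores high. For miR-221 the nearest were miR-29a (r = 0.97), miR-21 (0.96), miR-29c (0.96), miR-29b (0.95) and miR-135a (0.94). The miR-29 family represses collagens and other matrix genes, and miR-21 is abundant in injured tissue. All 5 had positive log2 fold changes, from 0.85 for miR-29a to 1.61 for miR-21, and none passed in limma (adjusted p from 0.314 to 0.518).

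For miR-222 the nearest were rno-miR-758 (r = 0.90), miR-511 (0.88), miR-302a (0.84), miR-147 (0.84) and miR-132 (0.75). miR-147 is induced in activated macrophages and miR-132 by growth factor and neural activity. Their log2 fold changes ran from 0.49 for rno-miR-758 to 9.10 ± 3.28 (SE) for miR-302a, which lies in plate row G, where the median standard deviation within groups was 2.12 cycles against 0.420 to 0.719 in the other rows; none passed in limma (adjusted p from 0.373 to 0.754). The 2 lists shared no assay. miR-221 and miR-222 had an r of 0.53 with each other. In likeness to miR-221, miR-222 was number 45 of 281, and in likeness to miR-222, miR-221 was number 27 of 281.

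Lists of other miRNAs, chosen with earlier results known, show what stood beside the pair. A first list held 11 assays of miRNAs taken as induced in inflammation and by growth factors, as the pair is in cell culture. Of these 10 were positive with a median of 0.83, where 232 of all 551 assays were positive with a median of -0.12. Against the 5 control RNAs 7 of the 11 were positive (115 of all 551), and with no normalization 6 of the 11 (124 of all 551). miR-146b was counted by 2 wells, at 0.75 and 0.83. miR-21 was at 1.61 ± 0.33 and miR-155, of activated leukocytes, at 0.94 ± 0.63, while miR-146a, an NF-kB target, was at -0.13 ± 0.39 (SE); none of the 11 passed in limma.

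Endothelium and smooth muscle are cells in which the pair is known to act. The lists drawn up for those cells had values on both sides of 0. Of 8 assays in the endothelial list 4 were positive and 0 passed, with a median of 0.03 that was -0.53 against the control RNAs. The positive ones were miR-23a, miR-23b, miR-24 and miR-27a (0.16 to 1.08), and miR-27b (-0.35) and miR-130a (-0.09) were negative. Both arms of miR-126, made from an intron of Egfl7, were also below 0. miR-126-3p was at -0.61 ± 0.37 and miR-126-5p at -0.14 ± 0.25 (SE). The 8 smooth muscle and mesenchymal assays had 4 positive and 0 passing, with a median of 0.11 (-0.38 against the control RNAs). Positive were miR-199a-5p (0.68), miR-199a-3p (0.24), miR-214 (0.49) and, on the second card, hsa-miR-214 (0.56). Below 0 were miR-145 at -0.68 ± 0.23 (SE), miR-143 (-0.29) and, on the second card, hsa-miR-143 (-0.43) and miR-199b (-0.0093). The part of cell content in the values of the pair was not tested.

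In the lists of other cell types 0 assays passed in limma. Leukocyte assays were positive in 3 of 6 (median 0.28, but -0.28 against the control RNAs), with myeloid miR-223 at 0.94 ± 0.55 and lymphocyte miR-150 at -1.09 ± 0.27 (limma adjusted p = 0.333). Erythroid assays were positive in 2 of 3 (1 of 3 against the control RNAs, 0 of 3 with no normalization), with miR-451 at 0.71 ± 1.20 and -0.35 to 1.60 with 1 sample left out, and hsa-miR-144 on the second card at -1.29 ± 0.32 (n = 2 each, limma adjusted p = 0.446). Epithelial assays had 4 of 10 positive, none against the control RNAs, and a median of -0.07, with miR-200c at -0.12 ± 0.33 (errors are SE).

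Since Cdkn1b restrains the cell cycle, lists of growth-related miRNAs were read as well. Among 12 growth-promoting assays of the miR-17 to miR-92a cluster and its paralogs, 11 were negative (9 against U6 in row B, 11 under each other scaling tried), with a median of -0.44 and miR-17 at -0.50 ± 0.30 (SE). Of all 551 assays 319 were negative on this scale, 436 against the 5 control RNAs and 427 with no normalization. Among 18 growth-restraining assays (let-7, miR-34 and miR-15 families) 12 were positive, but 3 against the control RNAs, with a median of 0.23 and miR-34a, a p53 target, at 2.55 ± 0.28 (SE, limma adjusted p = 0.0723). The lowest of them was miR-503, named after its value was seen, at -1.60 ± 0.32 (SE, limma adjusted p = 0.314). Assays of other miRNAs whose every mouse locus lies on chromosome X, as that of the pair does, had 24 of 55 positive and a median of -0.08, close to that of all assays. In each of these lists 0 passed.

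**Figure D4:**
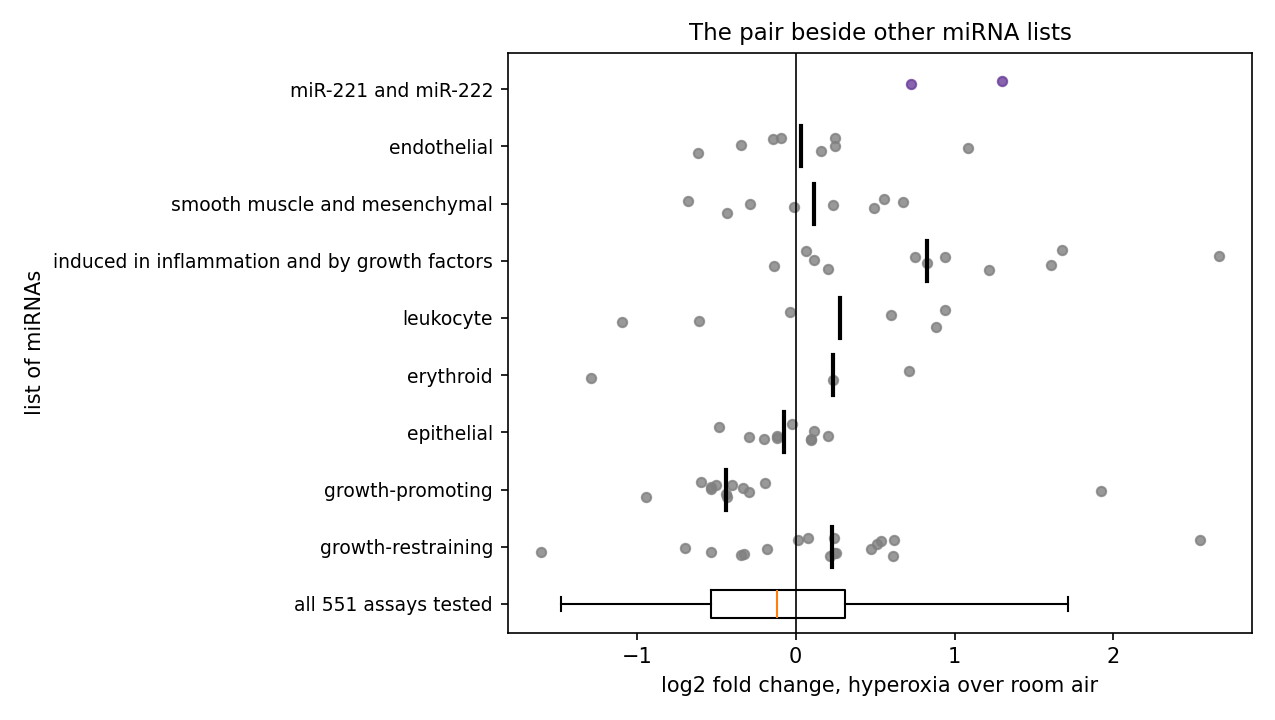
Log2 fold change of hyperoxia over room air (horizontal axis) for miR-221 and miR-222 and for the assays of 8 lists (vertical axis), with the list median as a bar; the lowest row is a box of all 551 assays tested with whiskers at the 5th and 95th percentiles. The pair lies at 0.72 and 1.30, to the right of the median of the endothelial list at 0.03 and on either side of the median of the inflammation list at 0.83.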

How the data were processed

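The authors deposited 1 table of 768 wells with a Ct per well and sample, a score in cycles that is not normalized, per the file headers; reverse transcription used Megaplex primer pools A and B and was followed by 12 cycles of pre-amplification, per the labels' protocols. The sources used here give no instrument, software or Ct threshold. The authors' fold in that table is a ratio of group means against U6, per the file headers. Members and lists were chosen with earlier results of these data known.

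Values at or above a Ct of 35 were set to missing, each sample was centred on the mean Ct of its card's miRNAs detected in all samples used (282 on the first card, 249 on the second), and assays detected in at least 2 samples per group were fitted with lmFit and eBayes of limma 3.58.1 under R 4.3.3 (two-sided, Benjamini-Hochberg over 551 assays). Of these steps only the limma fit was tested on simulated data, which had a common spread for all assays. The ceiling, centring and detection filter were not tested in that way. Intervals use limma's moderated degrees of freedom. Named are both members, any assay of their seed, the 5 assays most like each member, and the first member of each list (the first 3 of the inflammation list), with miR-150 and miR-144 from the first 3 of theirs. miR-503 and miR-322 were named after their values were seen. Also named were miR-146b, the other endothelial, smooth muscle and mesenchymal list members, partners in pairs, and markers of other tissues. Apart from assays also named by the rule above, these and miR-322 are not among the 23 other named assays followed through the alternatives. Alternatives covered the reference, Ct ceiling, detection filter, moderation, plate row G, the duplicated second-card values, replicate blocks and leaving out each sample; single control RNAs as reference were added after seeing the data.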

Additional observations from a re-analysis of the deposited data

How the results depend on the processing

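miR-221 stayed positive and short of the adjusted threshold in all 24 alternatives, from 0.41 to 1.60 on the log2 scale (adjusted p from 0.112 to 0.998); with 1 sample left out it ran from 1.18 to 1.51. miR-222 passed in none of its 24 alternatives and was positive in 21; it was at -0.037 with no normalization, at -0.11 with snoRNA135 alone and at -0.17 with U87 alone, and from 0.43 to 0.89 with 1 sample left out. The gain of miR-221 on miR-222 kept its sign in all 9 alternatives, from 0.30 to 1.08 with 1 sample left out, and limma with miR-222 as the reference gave it an adjusted p of 0.682. The count of assays past the threshold was 1 in place of 0 with a Ct ceiling of 32, with the first card alone, with trend and robust moderation and with row G left out (miR-34a each time, at 2.57, 2.55, 2.55 and 2.61). It ranged from 0 to 1 with 1 sample left out, where the 1 was miR-322 in the first-card well P24, called without hyperoxia replicate 1. The second-card well B48, not tested there, was at -0.41 with all its samples. Without hyperoxia replicate 1 or 3, or room air replicate 2 or 3, no second-card assay was tested. Those fits therefore adjusted over first-card assays alone.

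Same-numbered samples of the groups did not deviate together (correlations of -0.34, -0.23 and -0.18 over 282 assays). So few samples cannot settle whether the numbers pair them, and the main fit used no pairing. With the replicate block miR-221 was at 1.30 (limma adjusted p = 0.491), miR-222 at 0.72 (adjusted p = 0.589), 0 assays passed, and the gain within replicate numbers was 0.58 (exact sign-flip permutation p = 0.5). The sign-flip test has too few replicates to give a p under 0.05, and its smallest possible p is higher than that of the test between groups.

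Of the 23 other named assays, 406 of 421 values kept their direction and side of the threshold. Signs turned for rno-miR-758 (-0.070 against the 5 control RNAs, -0.27 with no normalization), miR-511 (-0.20) and miR-451 (-0.048) with no normalization, and miR-146a with quantile normalization (0.029). With 1 sample left out they turned for miR-146a (from -0.45 to 0.049), miR-200c (from -0.30 to 0.11) and miR-451 (from -0.35 to 1.60). The cause of these changes was not tested. Second-card assays rest on 2 samples per group.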
